A study of Mus musculus with 8 samples.

Results

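The genes of choline oxidation and the methionine cycle were described in livers that lack miR-33 in hepatocytes and in their controls. They were chosen by name, as the enzymes that form and use betaine and those of the S-adenosylmethionine cycle: Chdh, Aldh7a1, Bhmt, Bhmt2, Dmgdh, Sardh, Gnmt, Mat1a, Ahcy and Cbs. All 10 were found among the 17810 genes of the deposited table, and all 10 had enough counts to be tested. The RNA-Seq libraries came from 4 WT and 4 HKO male mice, with 1 library per whole liver. HKO mice carried floxed miR-33 alleles and a Cre recombinase driven by the albumin promoter, which acts in hepatocytes, and WT mice were their littermates. Mice of both genotypes were 5 months old and had been on CD-HFD, a fat-rich and choline-deficient diet that induces fatty liver, since the age of 8 weeks, for 3 months. All the values are therefore from mice on a choline-deficient diet, and a control diet was not analysed here.

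The liver disposes of choline by oxidising it in mitochondria, first to betaine aldehyde and then to betaine. Betaine gives a methyl group to homocysteine, which makes methionine again, and what remains of it, dimethylglycine, is stripped to sarcosine and glycine while its methyl groups enter the folate pool. Methionine is activated to S-adenosylmethionine, the donor for most cellular methylation reactions, and the product of those reactions is hydrolysed to homocysteine. Homocysteine then either returns to methionine or leaves the cycle for cysteine and glutathione. Several of these enzymes are among the most abundant in hepatocytes. When choline is short, the same methyl groups are drawn on to make phosphatidylcholine in the liver.

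The libraries held 12174339 to 18319736 counts in WT and 12509201 to 18735785 counts in HKO livers, so that 3 counts, the lowest level taken as measurable, equal 0.149 to 0.255 CPM, the unit used throughout, which scales the counts of each library to a common total adjusted by the TMM method. The 10 genes lay far above this, at 1825 to 74083 counts in any liver. The libraries of the 4 HKO livers were numbered before those of the 4 WT livers, so that an effect of this order cannot be told apart from one of genotype. The level of miR-33 was not analysed here, and the genotypes were taken from the labels. Of 8 hepatocyte markers, 4 were called higher in HKO livers, namely Serpina1c, Fgb, Ahsg and Tat. Over all genes tested, edgeR called 1.66% higher and 3.37% lower in HKO livers. The summed level of the hepatocyte list overlapped, at 94430 to 129000 CPM in WT livers and at 88310 to 144700 CPM in HKO livers. None of the 7 pericentral hepatocyte markers was called, but their sum did not overlap, at 12440 to 14110 CPM in WT livers and at 15480 to 17370 CPM in HKO livers, and most of it was Cyp2e1. The 7 periportal markers summed to 3136 to 3665 CPM and 3517 to 4835 CPM, with 1 called higher and 1 lower. Endothelial (46.7 to 137 and 67.8 to 156 CPM), Kupffer cell (74.2 to 195 and 55.9 to 187 CPM), stellate (342 to 449 and 286 to 412 CPM) and cholangiocyte (40.6 to 51.0 and 31.0 to 111 CPM) markers were low beside these and overlapped, with 1 stellate marker, Col1a1, called lower and no other marker of these lists called. The part of these marker levels in the differences of the 10 genes was not tested, and in whole liver fewer cells of a type and less RNA per cell cannot be told apart.

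Gnmt, Cbs and Ahcy had the highest HKO levels relative to WT among the 10 genes, with fold changes of 1.5, 1.42 and 1.35. Chdh had the lowest, at 0.791. None of the 10 passed an adjusted p under 0.05 in edgeR's quasi-likelihood test, where 1.66% of the 12395 genes tested were called higher and 3.37% lower in HKO livers. At an unadjusted p under 0.05, edgeR gave 4 of the 10 as higher (Dmgdh, Gnmt, Ahcy and Cbs) against 9.08% of all genes, and 1 as lower (Chdh) against 10.7%. DESeq2 called 3 higher with its adjusted p (Gnmt, Ahcy and Cbs), where it called 3.11% of all genes, and 1 lower (Chdh), where it called 5.07%. Limma-voom called none of the 10, against 1.61% of all genes higher and 3.25% lower. Cbs was the only gene of the 10 whose 4 HKO livers all lay above its 4 WT livers, which was so for 5.34% of all genes tested, and none lay wholly below, as 7.19% of all genes did. The log2 fold changes were positive in 8 and negative in 2 of the 10 genes and had a median of 0.13, against 0.01 over all genes tested, of which 6402 were positive. With total count scaling Bhmt and Sardh turned negative, which left 6 positive and 4 negative.

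**Figure D1:**
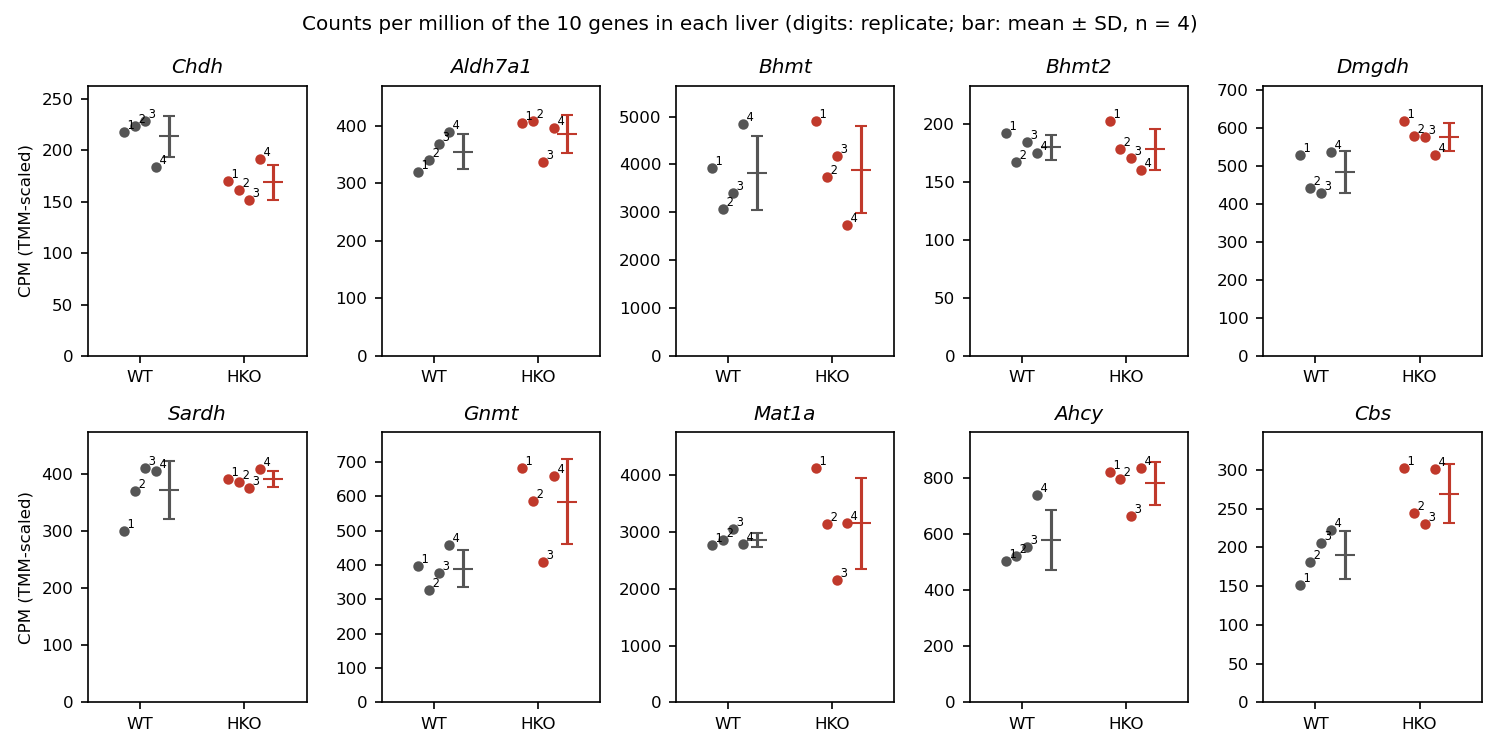
Level of each of the 10 genes in CPM (vertical axes from 0, a scale per gene) in the 4 WT livers (grey) and the 4 HKO livers (red), with the replicate number beside each point and the mean ± SD (n = 4) as bars. Only the panel of Cbs has its groups fully apart, and in Gnmt the HKO liver numbered 3, at 410.4 CPM, lies among the WT livers.

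Betaine is formed in 2 steps. Chdh, choline dehydrogenase of the inner mitochondrial membrane, makes betaine aldehyde (chromosome 14, 30008901 to 30040468, plus strand, GRCm38). It stood at 218, 224, 228 and 184 CPM in WT livers and at 170.1, 162, 152 and 192 CPM in HKO livers, in the order of the replicate numbers. The HKO livers were lower except that the fourth lay above the lowest WT liver, also the fourth. The mean differed from WT by -20.9%, from 214 ± 20.01 CPM (SD, n = 4) to 169 ± 17.1 CPM (SD, n = 4), with a log2 fold change of -0.34 ± 0.0959 (SE) at an edgeR adjusted p of 0.0686. This value passed the threshold with DESeq2 (adjusted p = 0.0257). It also passed with total count scaling in edgeR (-0.43 on the log2 scale, adjusted p = 0.0359). That scaling moved the median log2 fold change of all genes tested from 0.01 to -0.08. When edgeR was run without the fourth WT liver, Chdh passed as well (adjusted p = 0.0328). It did not pass in the other 7 edgeR fits without a liver, where the adjusted p reached 0.212 without the second WT liver. Aldh7a1 oxidises betaine aldehyde to betaine and also serves in lysine breakdown. It was at 319, 341, 368 and 389 CPM in WT livers and at 405, 408, 337 and 395 CPM in HKO livers. These overlapped, and the log2 fold change was 0.12 ± 0.0921 (SE) at an edgeR adjusted p of 0.509. With total count scaling it was 0.038, and without the first WT liver it was 0.079. The difference of Aldh7a1 was therefore within the spread of the livers, while that of Chdh stood near the threshold on the other side of 0.

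MiR-33 represses mRNAs that pair with its seed, so the annotated 3'UTRs of the 10 genes were searched for the 7-base words CAATGCA (pairing with bases 2 to 8) and AATGCAA (pairing with bases 2 to 7, followed by A). The mature miRNA is shown since it is what was deleted, with its seed, bases 2 to 8, in capitals. It lies on chromosome 15 of GRCm38.p6 (chr15:82198127-82198147, plus strand), and its sequence is from RefSeq. The other line is the one match in Chdh, with the matched word in capitals. It starts at base 2377 of the 3637 bases after the stop codon. For each gene the coding transcript with the longest annotated 3'UTR was used.
mmu-miR-33-5p: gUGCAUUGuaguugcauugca
Chdh 3'UTR: atatcaaacctAATGCAAagattttaatct

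Chdh held 1 match and Aldh7a1 held 2 in 2231 bases, and the other 8 genes held 0. Of the 11536 tested genes with at least 50 annotated bases after the stop codon, 16.2% held at least 1 match. A match in 2 of the 10 genes is near that share. That share was not matched for length, and the genes without a match had from 136 bases (Gnmt) to 4296 bases (Cbs). Chdh had a lower and Aldh7a1 a slightly higher mean in HKO livers. A match is a stretch of letters only, and pairing with the miRNA was not measured here.

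Betaine is used by Bhmt, betaine-homocysteine methyltransferase, which was the most abundant of the 10 mRNAs (chromosome 13, 93616891 to 93637758, minus strand). It was at 3932, 3064, 3411 and 4841 CPM in WT livers and at 4904, 3736, 4174 and 2738 CPM in HKO livers. The highest and the lowest of the 8 livers were both HKO, and the genotypes overlapped almost fully. The means were 3812 ± 773 CPM and 3888 ± 905 CPM (SD, n = 4 each), a log2 fold change of 0.029 ± 0.187 (SE) at an edgeR adjusted p of 0.958, and the sign turned with total count scaling and in 4 of the 8 fits that left out a liver. Bhmt2, its paralog, takes the methyl group from S-methylmethionine instead of betaine (chromosome 13, 93656097 to 93674302, minus strand). It was at 192, 167.3, 185 and 175 CPM in WT livers and at 202, 178, 171 and 160.4 CPM in HKO livers. These values also overlapped, with a log2 fold change of -0.015 ± 0.0870 (SE) at an edgeR adjusted p of 0.950. The estimated counts of both genes were whole as deposited, within 1e-09, in every liver, whereas the authors' method gives fractions where it splits reads between genes.

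Dimethylglycine, the product of Bhmt, is oxidised by the mitochondrial flavoenzyme Dmgdh to sarcosine (chromosome 13, 93674436 to 93752823, plus strand). Dmgdh was at 529, 442, 430.4 and 537 CPM in WT livers and at 619, 581, 576 and 529 CPM in HKO livers. The first 3 HKO livers lay above every WT liver, and the fourth lay beside the highest WT values. The mean was 18.95% higher in HKO livers (484 ± 56.1 and 576 ± 36.9 CPM, SD, n = 4 each), with a log2 fold change of 0.25 ± 0.0973 (SE) at an edgeR adjusted p of 0.178. Sardh, the related enzyme that turns sarcosine into glycine, lies on chromosome 2 (27188393 to 27248332, minus strand). It was at 301, 371, 412 and 405 CPM in WT livers and at 393, 387, 376 and 409.8 CPM in HKO livers. The HKO livers were close together within the WT range, and the log2 fold change was 0.07 ± 0.101 (SE) at an edgeR adjusted p of 0.755.

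Bhmt, Bhmt2 and Dmgdh are neighbours on chromosome 13. Bhmt2 and Dmgdh stand head to head with 133 bases between their annotated starts, and 18338 bases separate the start of Bhmt from the end of Bhmt2. With these starts so close, the ratio of Dmgdh to Bhmt2 counts in each liver was taken after the values had been seen, as a description. On the log2 scale it was 1.46, 1.40, 1.22 and 1.62 in WT and 1.61, 1.71, 1.75 and 1.72 in HKO livers. The means were 1.42 ± 0.16 and 1.70 ± 0.06 (SD, n = 4 each), and the groups touched at the fourth WT and the first HKO liver. Arsb, a lysosomal sulfatase gene beyond Dmgdh, was lower in HKO livers with a log2 fold change of -0.42 ± 0.0918 (SE) at an edgeR adjusted p of 0.0252, and Jmy on the other side had a value of 0.029 at an edgeR adjusted p of 0.881. AW495222, antisense within Dmgdh, was at a mean of 0.569 CPM in WT livers and at 0.327 CPM in HKO livers, too low to be tested, and the sources used here do not say whether the counting used the strand.

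**Figure D2:**
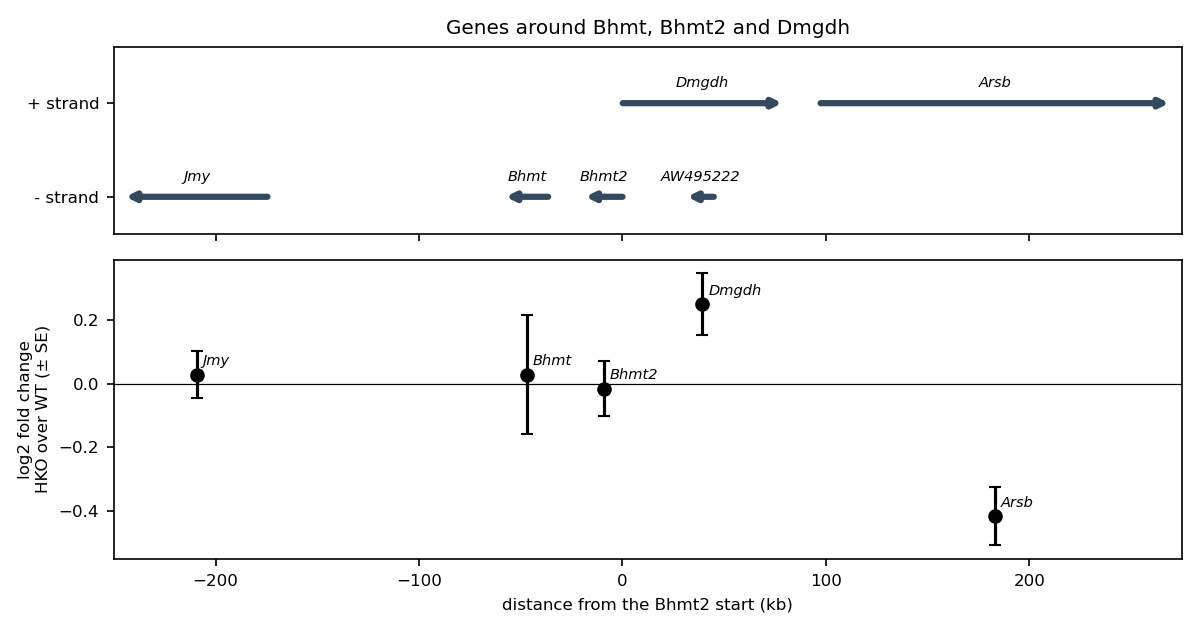
Genes around Bhmt, Bhmt2 and Dmgdh, drawn to scale as distance in kb from the Bhmt2 start, with arrows in the direction of transcription (top), and the log2 fold change of HKO over WT with its standard error for each gene tested (bottom). Dmgdh is at 0.25, Bhmt and Bhmt2 are near 0 and Arsb is at -0.42.

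The stretch that holds both starts is printed because Bhmt2 and Dmgdh both begin in it. It is the RefSeq promoter of Dmgdh on GRCm38.p6 (chr13:93674186-93674485, plus strand), which runs from 250 bases before to 50 bases after the start, so that Dmgdh starts at base 251 and Bhmt2, on the other strand, at base 117. Capitals mark GC boxes, GGGCGG or on the other strand CCGCCC, of which it holds 2.
Dmgdh promoter: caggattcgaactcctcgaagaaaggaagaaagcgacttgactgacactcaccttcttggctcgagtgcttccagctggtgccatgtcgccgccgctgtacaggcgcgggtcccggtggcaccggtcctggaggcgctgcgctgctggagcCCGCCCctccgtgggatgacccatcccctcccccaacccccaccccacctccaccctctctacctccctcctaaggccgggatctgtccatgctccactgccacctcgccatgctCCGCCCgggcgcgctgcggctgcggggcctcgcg

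This motif was in 35.7% of the 32851 mouse promoters of the same length. The 300 bases have 68.0% G and C and 25 CpG dinucleotides, and those of Bhmt2, which overlap them, 73.7% and 26, against medians of 52.7% and 7 over all promoters. The promoter of Bhmt differs from both, with 48.0% G and C, 8 CpG and no GC box but 2 CCAAT boxes. A motif match is a description of the letters and says nothing of whether a factor binds there.

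Methionine is activated by Mat1a, the catalytic subunit of the S-adenosylmethionine synthetases of adult liver (chromosome 14, 41105012 to 41124428, plus strand). It was at 2772, 2853, 3046 and 2797 CPM in WT livers and at 4134, 3151, 2160.1 and 3165 CPM in HKO livers. The WT livers were alike, whereas the HKO livers held both the highest and the lowest of the 8 values. The coefficient of variation was 4.33% over WT and 25.6% over HKO livers, and the log2 fold change was 0.14 ± 0.161 (SE) at an edgeR adjusted p of 0.702. With total count scaling the log2 fold change was 0.050.

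Gnmt, glycine N-methyltransferase, spends S-adenosylmethionine on glycine and makes sarcosine, and is a main user of the donor in liver (chromosome 17, 46725664 to 46729211, minus strand). It stood at 396, 328, 377 and 458 CPM in WT livers and at 684, 586, 410.4 and 658 CPM in HKO livers. Of the HKO livers, 3 lay above every WT liver, and the third lay below the highest WT liver. The means were 389.7 ± 53.6 CPM and 585 ± 123 CPM (SD, n = 4 each), 50.01% higher in HKO livers, with a log2 fold change of 0.59 ± 0.157 (SE) at an edgeR adjusted p of 0.0614. DESeq2 called this difference (adjusted p = 0.00579), as did edgeR without the third HKO liver, at 0.72 on the log2 scale (adjusted p = 0.00785). The other 7 edgeR fits without a liver did not call Gnmt, with adjusted p up to 0.167 without the second WT liver. Ahcy hydrolyses S-adenosylhomocysteine, the product of Gnmt and other methyltransferases, to homocysteine and adenosine (chromosome 2, 155059310 to 155074497, minus strand). It was at 505, 519.9, 555 and 737 CPM in WT livers and at 821, 795, 665 and 835 CPM in HKO livers. The fourth WT liver stood above the other 3 and above the third HKO liver, and apart from it the groups did not overlap. The mean was 34.6% higher in HKO livers (579 ± 107 and 779 ± 77.9 CPM, SD, n = 4 each), with a log2 fold change of 0.43 ± 0.128 (SE) at an edgeR adjusted p of 0.0815. DESeq2 called Ahcy too (adjusted p = 0.0211), and edgeR did so without the fourth WT liver, at 0.57 on the log2 scale (adjusted p = 0.0117). In the other 7 such edgeR fits Ahcy was not called, and its adjusted p reached 0.230 without the second WT liver.

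The Gnmt promoter is printed because Gnmt had the largest fold change of the 10 genes (RefSeq, GRCm38.p6, chr17:46729116-46729415, minus strand). Capitals mark its 1 CCAAT box, here on the other strand as ATTGG, a motif found on either strand in 37.4% of all promoters.
Gnmt promoter: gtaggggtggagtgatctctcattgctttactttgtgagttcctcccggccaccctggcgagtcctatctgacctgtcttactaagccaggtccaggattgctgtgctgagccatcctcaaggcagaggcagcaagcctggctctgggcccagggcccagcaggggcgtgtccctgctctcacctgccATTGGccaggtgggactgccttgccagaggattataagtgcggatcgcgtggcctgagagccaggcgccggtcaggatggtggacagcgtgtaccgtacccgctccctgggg

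Cbs, cystathionine beta-synthase, joins homocysteine to serine and so takes it out of the cycle towards cysteine (chromosome 17, 31612623 to 31637233, minus strand). It stood at 151, 182, 206 and 222 CPM in WT livers and at 303, 244, 229.6 and 301 CPM in HKO livers. All 4 HKO livers were above all 4 WT livers, with a small gap between the fourth WT and the third HKO liver. The means were 190.2 ± 31.1 CPM and 269.5 ± 38.04 CPM (SD, n = 4 each), 41.7% higher in HKO livers, with a log2 fold change of 0.50 ± 0.132 (SE). The adjusted p of 0.0517 from edgeR was just above the threshold of 0.05, and it was 0.0499 with RLE scaling and 0.00770 with DESeq2. The other settings with all 8 livers called Cbs in 3 of 9 cases, and the adjusted p reached 0.113 with total count scaling in edgeR. In edgeR it was 0.0364 without the fourth WT liver and 0.0400 without the third HKO liver, but 0.0643 to 0.156 in the other 6 fits without a liver, the highest without the second WT liver. The summed pericentral markers, mostly Cyp2e1, were apart between the genotypes in the same direction, though none of the 7 was called. The summed hepatocyte and periportal markers overlapped, with 4 of 8 and 1 of 7 called higher and 0 and 1 lower. The part of any of these markers in the difference of Cbs was not tested. Cbs had an estimated count that was not whole, by the same tolerance, in all 8 livers, as did Chdh, Aldh7a1, Dmgdh, Gnmt and Ahcy, which the authors' method gives where reads are split between annotated features.

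The promoter of Cbs is shown as that of the only gene of the 10 whose genotypes were fully apart (RefSeq, GRCm38.p6, chr17:31637156-31637455, minus strand). In capitals are 1 CACGTG word, 2 CCAAT boxes (CCAAT or ATTGG) and 2 GC boxes (GGGCGG or CCGCCC), none of which overlaps another.
Cbs promoter: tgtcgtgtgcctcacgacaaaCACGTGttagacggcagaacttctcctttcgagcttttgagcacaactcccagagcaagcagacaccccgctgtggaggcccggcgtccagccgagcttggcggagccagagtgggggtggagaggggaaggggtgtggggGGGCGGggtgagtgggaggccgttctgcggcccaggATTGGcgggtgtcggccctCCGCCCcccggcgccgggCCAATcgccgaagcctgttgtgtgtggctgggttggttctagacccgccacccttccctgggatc

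Of all promoters, 7.15% held CACGTG, and among the 8 of the 10 genes matched in the RefSeq promoter table only Cbs did. GC boxes were also in the promoters of Ahcy, Bhmt2, Dmgdh and 1 of the 3 listed for Chdh. The TATAAA word, held by 13.6% of all promoters, was in none of those matched, and the absence of these letters from the window says nothing of the factor. CCAAT boxes, held by 37.4% of all promoters, were in those of Ahcy, Gnmt, Cbs and Bhmt and of no other gene matched. Ahcy, Gnmt and Cbs, which had the largest fold changes, had 52.7%, 62% and 66.7% G and C and 13, 11 and 22 CpG. The medians over all promoters were 52.7% and 7. Whether these letters bear on the fold changes was not tested.

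The livers of a genotype differed among themselves in several genes at once. The first HKO liver was the highest of the 8 livers in 6 of the 10 genes, and the third HKO liver was the lowest HKO liver in 7. Among WT livers, the fourth was the highest in 6 genes and the first the lowest in 5. Since CPM shares one scaling per liver, such runs across genes are not independent of each other. In HKO livers the coefficient of variation ran from 3.57% for Sardh to 25.6% for Mat1a, and in WT livers from 4.33% for Mat1a to 20.3% for Bhmt. Leaving out each liver in turn moved the log2 fold change of Gnmt between 0.50 and 0.72, of Cbs between 0.41 and 0.59, of Ahcy between 0.37 and 0.57, of Dmgdh between 0.20 and 0.30 and of Chdh between -0.40 and -0.29. These 5 genes were those at an unadjusted p under 0.05 in edgeR. They kept their sign in every fit without a liver and under every other scaling, filter and model tried. So did Aldh7a1, whereas Bhmt, Bhmt2, Sardh and Mat1a did not. All these fits reuse the same livers, and how many of all genes kept their sign was not counted.

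**Figure D3:**
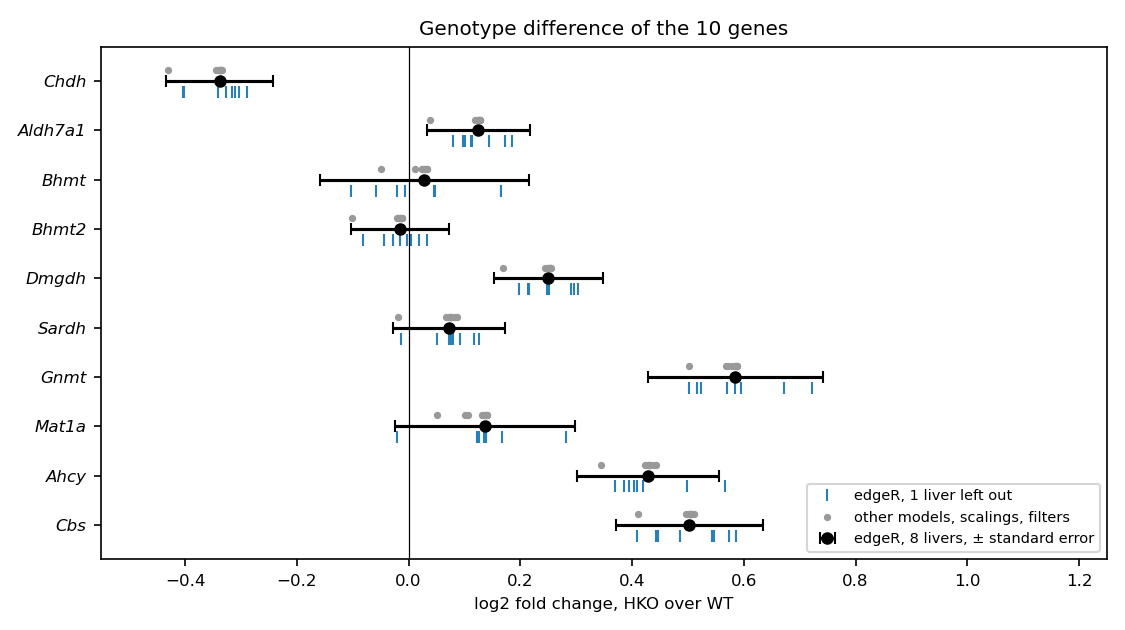
Log2 fold change of HKO over WT livers for the 10 genes from edgeR with all 8 livers (black, ± standard error), with 1 liver left out at a time (blue ticks) and with other models, scalings and filters (grey). Chdh stays below 0 and Dmgdh, Gnmt, Ahcy and Cbs stay above 0 in all of them, and the grey point farthest to the left in each row is total count scaling.

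At the branch points of the pathway, the counts of 2 genes were set against each other within each liver, which needs no scaling between libraries. In all, 6 ratios were compared with exact permutation, two-sided, of the 70 ways to allocate the livers, which cannot give a p below 0.0286. The ratio of Gnmt to Mat1a, a use and the synthesis of S-adenosylmethionine, was -2.81, -3.12, -3.02 and -2.61 in WT and -2.60, -2.43, -2.40 and -2.27 in HKO livers on the log2 scale. Every HKO liver lay above every WT liver, though the first HKO and the fourth WT liver nearly met. The difference was 0.47, with the smallest p the exact permutation test allows, 0.0286, and an adjusted p of 0.171 over the 6 ratios. The third HKO liver was the lowest HKO liver and the first the highest in both genes. Over HKO livers this ratio had an SD of 0.14, and the ratio of Mat1a to Mat2a one of 0.51.

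The ratio of Bhmt to Cbs, the return of homocysteine to methionine against its exit, was 4.70, 4.08, 4.05 and 4.44 in WT and 4.02, 3.93, 4.18 and 3.18 in HKO livers. Only the third HKO liver lay within the WT range, the other HKO livers lying below it, and the difference was -0.49 (exact permutation test, p = 0.114, adjusted p = 0.343). Without the fourth HKO liver it was -0.27. Bhmt against Mtr, the methionine synthase that uses folate and cobalamin for the same step, differed by -0.05 (exact permutation p = 0.914, adjusted p = 0.914). Chdh against Bhmt, the formation and the use of betaine, differed by -0.36 (exact permutation p = 0.314, adjusted p = 0.629). Mat1a against Mat2a, which serves mainly tissues other than adult liver, differed by 0.15 (exact permutation p = 0.600, adjusted p = 0.900), and Bhmt2 against Bhmt by -0.04 (exact permutation p = 0.857, adjusted p = 0.914). In these 5 ratios the genotypes overlapped, and an adjusted p above 0.05 does not show that a ratio was the same in both.

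**Figure D4:**
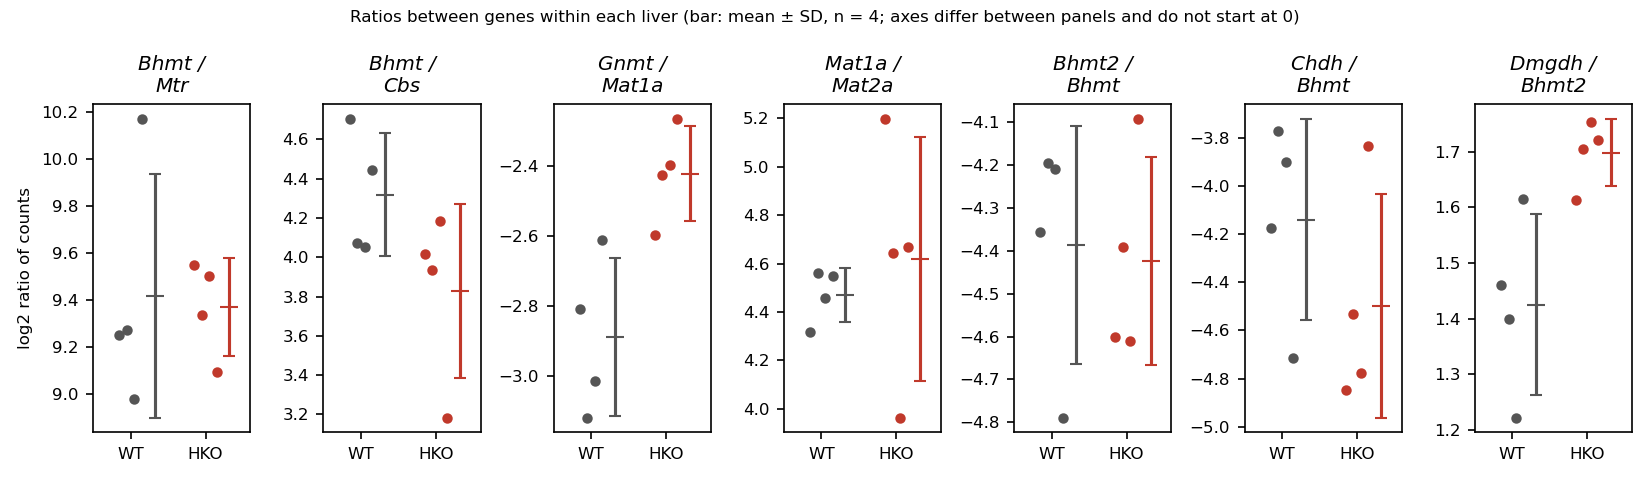
Log2 ratio of the counts of 2 genes in each liver, WT in grey and HKO in red, with the mean ± SD (n = 4) as bars and a vertical axis per panel that does not start at 0. The HKO points lie above the WT points without overlap for Gnmt over Mat1a, and they touch them for Dmgdh over Bhmt2, a ratio added after the values were seen and not tested.

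Levels of different genes can be set side by side only per length, so CPM was divided by the length of the longest annotated coding transcript in kb, a length that some mRNAs may not reach. On this scale Bhmt led in both genotypes, with 1531 CPM per kb in WT (1231 to 1944 over the livers) and 1562 in HKO livers (1100.0 to 1970.0). Mat1a followed with 827 and 909 CPM per kb and then Gnmt with 376.5 and 565. The ranges of Bhmt and Mat1a did not overlap in WT livers but did in HKO livers. Gnmt and Mat1a were apart in WT livers, whereas in HKO livers the highest Gnmt value, 661 CPM per kb, exceeded the lowest Mat1a value, 623. Ahcy had means of 228 and 306 CPM per kb and Dmgdh of 162 and 193, each apart from its neighbours in both genotypes. Aldh7a1, Sardh and Bhmt2 lay together, at means of 85.8, 82.3 and 72.9 CPM per kb in WT and 93.5, 86.6 and 72.1 in HKO livers, and the ranges of neighbours overlapped except those of Sardh and Bhmt2 in HKO livers. Chdh and Cbs were lowest, and their order differed between the genotypes. Chdh had 37.5 and Cbs 30.6 CPM per kb in WT livers, with overlapping ranges, and in HKO livers Cbs had 43.3 (36.9 to 48.6) and Chdh 29.7 (26.7 to 33.8), without overlap. The values of these 2 genes were divided by long transcripts, of 6226 bases for Cbs and 5690 for Chdh. Mtr stood at 0.666 CPM per kb in WT and 0.688 in HKO livers, far below Bhmt, and Mat2a at 38.2 and 37.0, far below Mat1a.

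Genes that feed the 10 or draw on them were taken from 7 lists. Of their 87 genes, 86 were in the table and 81 were tested, of which edgeR called 2 higher and 4 lower in HKO livers, where 1.66% and 3.37% of all genes tested were called, and the median log2 fold change was -0.02. Among 14 tested genes of choline and betaine handling, Gpcpd1 was higher, and Slc44a3 and Chkb were lower. Gpcpd1 splits glycerophosphocholine, the first step by which choline is recovered from it, and was at 148, 187, 189 and 172 CPM in WT livers and at 287, 261, 350.0 and 251 CPM in HKO livers. The HKO livers were all above the WT livers, the log2 fold change was 0.72 ± 0.117 (SE) at an edgeR adjusted p of 0.00611, and the call held in each of the 8 fits without a liver. Chkb, a choline kinase, was at 29.9, 25.3, 23.7 and 23.0 CPM in WT livers and at 16.5, 18.5, 19.2 and 17.4 CPM in HKO livers. It fell by 0.51 ± 0.105 (SE) on the log2 scale without overlap, at an edgeR adjusted p of 0.0198, a call lost without the first WT, the second WT or the fourth HKO liver (adjusted p = 0.0624, 0.0684 and 0.0561). Slc44a3, of the choline transporter-like family, was at 13.3, 11.2, 8.80 and 9.99 CPM in WT livers and at 7.15, 7.87, 5.80 and 6.73 CPM in HKO livers, without overlap. Its mean fell from 10.8 to 6.89 CPM, a log2 fold change of -0.65 ± 0.155 (SE) at an edgeR adjusted p of 0.0357. Its call held in only 2 of the 8 fits without a liver, those without the third WT or the second HKO liver, and the adjusted p reached 0.112. Limma-voom did not call it with all 8 livers (adjusted p = 0.0533).

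On the side of glycine, which Gnmt and Sardh consume and make, edgeR called 1 of 9 genes. This was Agxt, which makes glycine from glyoxylate, at 66.1, 51.4, 67.5 and 72.0 CPM in WT livers and at 84.7, 112, 97.5 and 133 CPM in HKO livers. Its HKO livers were all above its WT livers, and the log2 fold change was 0.73 ± 0.143 (SE) at an edgeR adjusted p of 0.0177, with the call lost without the first or the second WT liver (adjusted p = 0.0549 and 0.0541). Of the 12 genes of transsulfuration and cysteine use, which lie behind Cbs, 2 were called lower and 0 higher, where 3.37% and 1.66% of all genes were. The list went both ways, with log2 fold changes from -1.25 to 1.33, 5 of them positive and 7 negative. Gclc, the catalytic subunit of glutamate-cysteine ligase, was at 482, 442, 421 and 447 CPM in WT livers and at 247, 299, 319.6 and 375 CPM in HKO livers. It fell by 0.53 ± 0.115 (SE) on the log2 scale without overlap, at an edgeR adjusted p of 0.0236, and this was not called without the first WT, the second WT or the second HKO liver (adjusted p = 0.0785, 0.0799 and 0.0587). Gss, glutathione synthetase, was at 37.5, 44.1, 36.4 and 39.9 CPM in WT livers and at 27.1, 28.6, 30.4 and 28.9 CPM in HKO livers. It fell by 0.46 ± 0.0865 (SE) without overlap, at an edgeR adjusted p of 0.0136, with an adjusted p of 0.0578 without the second WT liver. Cth, the enzyme after Cbs, was looked at after its values were known. It was at 157, 177, 206 and 272 CPM in WT livers and at 322, 297, 276 and 336 CPM in HKO livers, which did not overlap. Its log2 fold change was 0.60 ± 0.153 (SE) at an edgeR adjusted p of 0.0510, and the other settings with all 8 livers called it in 6 of 9 cases. Without the fourth WT liver the edgeR adjusted p was 0.00420, and in the other 7 fits without a liver Cth was not called, with values up to 0.150 without the second WT liver.

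The other lists held no called gene in edgeR. These were 10 other methionine cycle genes (log2 fold changes from -0.72 to 0.16), 8 methyl acceptor genes of S-adenosylmethionine other than Gnmt (-0.40 to 1.22), 18 genes of folate one-carbon metabolism (-1.32 to 0.64) and 10 of methionine salvage and polyamines (-0.17 to 0.26). At an unadjusted p under 0.05 they held 2, 2, 6 and 2 genes. At that level choline and betaine handling held 7 of 14, transsulfuration and cysteine use 7 of 12 and glycine and serine 2 of 9. Over all 7 lists edgeR gave 12 higher and 16 lower of 81 at that level, against 9.08% and 10.7% of all genes. DESeq2 called 7 and 8 of the 81 with its adjusted p, against 3.11% and 5.07%, and limma-voom 5 and 5, against 1.61% and 3.25%. Mtr was at 4.14 to 6.71 CPM in WT livers and at 4.94 to 6.48 CPM in HKO livers (log2 fold change 0.05 ± 0.182, SE, at an edgeR adjusted p of 0.929). Mat2a was at 119 to 139 CPM and 113 to 138 CPM (log2 fold change -0.05 ± 0.0877, SE, at an edgeR adjusted p of 0.832). Both partner genes thus overlapped between the genotypes.

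**Figure D5:**
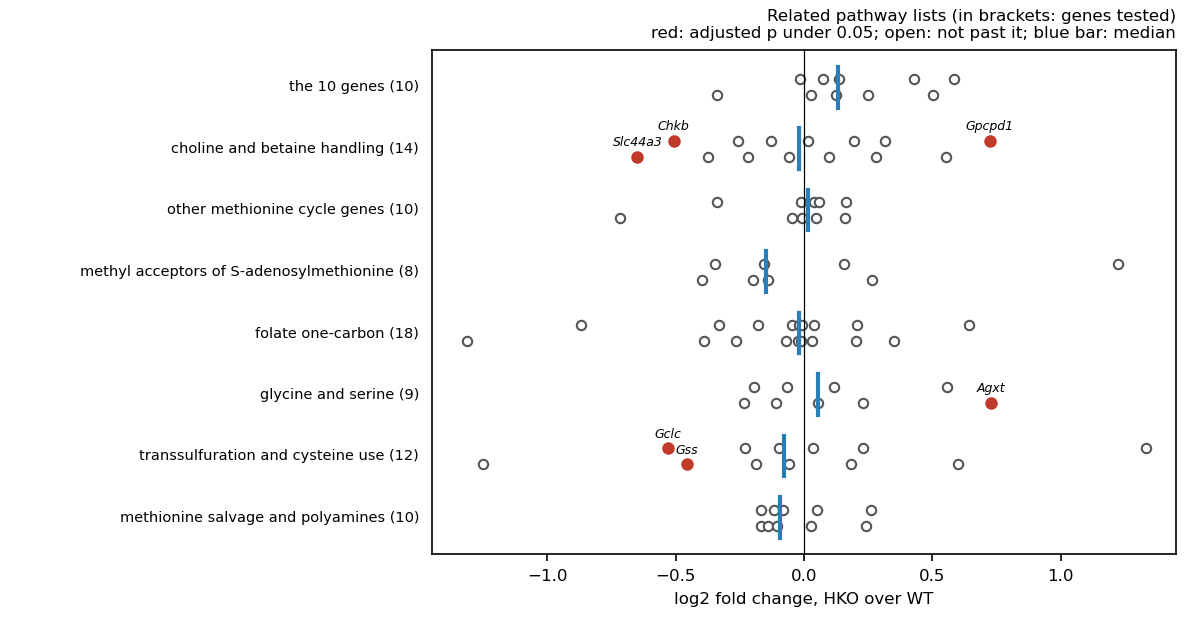
Log2 fold change of HKO over WT livers for each tested gene of the 10 and of 7 related lists, with the number tested in brackets, the list median as a blue bar and genes called at an adjusted p under 0.05 in edgeR in red. Of 6 genes in red, 2 lie to the right of 0 (Gpcpd1 and Agxt) and 4 lie to the left (Slc44a3, Chkb, Gclc and Gss), and every list median lies between -0.15 and 0.13.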

How the data were processed

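RNA-Seq was analysed from 4 WT and 4 HKO livers. The authors deposited estimated counts per gene from Partek's expectation-maximization method, not normalized, after alignment with STAR per the submitters' processing notes. The versions and the annotation are not given in the sources used here, and the sources used here do not state the study's RNA-Seq model. The labels name a small RNA kit and rRNA depletion, so the type of library is uncertain. Of the listed symbols, 17789 matched RefSeq GRCm38.p6, 82.5% of them with the same start or end. Every column was mapped to a sample by its title, genotype and replicate number. The descriptions of 3 WT samples carry the mouse tag of another WT sample, so which WT mouse these are is less sure than their genotype. Nothing in the labels pairs the mice.

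The estimated counts were rounded and tested with edgeR 4.0.16 (R 4.3.3): TMM scaling, the default filter (minimum count 10), quasi-likelihood test and Benjamini-Hochberg adjustment over the 12395 genes tested, with calls at an adjusted p under 0.05. CPM values use TMM-scaled totals. The total of 12174339 to 18735785 counts per liver limits precision by counting error, small for the 10 genes, while the coefficient of biological variation was 0.18. Ratios used a pseudocount of 1 count and exact permutation tests. Other settings tried were the models of DESeq2 1.42.0 and limma-voom (version 3.58.1), scaling by RLE, by the upper quartile or by the total count, 2 other expression filters, edgeR's legacy method, a block for the replicate number, calls that also required a fold change above 1.5 or used the unadjusted p, and fits without 1 liver. The models were tested on simulated data. All 10 genes are named, as are listed pathway genes called by edgeR and the partner genes Mtr and Mat2a. Cth, Arsb, Jmy, AW495222 and the ratio of Dmgdh to Bhmt2 were added after their values were seen. The 10 genes and the lists were chosen with earlier results of these data known. Levels per kb used the longest coding transcripts of GENCODE M21, and the seed search used the coding transcripts with the longest 3'UTRs. Promoters and the miRNA were read from RefSeq tables. Summaries were made in Python 3.11.15 with pandas 2.3.3 and numpy 2.4.6, and plots in matplotlib 3.10.9.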

Additional observations from a re-analysis of the deposited data

How the results depend on the processing

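Over all genes tested, edgeR called 206 genes higher and 418 lower, and 33.01% of its calls were higher. Total count scaling, which moved the median log2 fold change of all genes to -0.08, gave 119 higher genes, 16.1% of its calls, and DESeq2 gave 385 higher and 629 lower. Leaving out each liver gave 61 to 230 higher and 151 to 368 lower genes, with 74 and 198 without the first WT, 61 and 151 without the second WT and 125 and 239 without the fourth HKO liver. Of the 10 genes, none was called in the comparison as reported. RLE and upper quartile scaling each called 1 higher, where they called 218 and 207 of the 12395 genes tested higher. Total count scaling called 1 lower (Chdh), where it called 621 of all genes lower. DESeq2 called 3 higher and 1 lower. The unadjusted p gave 4 higher and 1 lower, against 9.08% and 10.7% of all genes. Leaving out each liver gave 0 to 2 higher (2 without the fourth WT and 2 without the third HKO liver) and 0 to 1 lower. Of the pathway list genes, 2 higher and 4 lower became 7 and 8 with DESeq2, 12 and 16 with the unadjusted p, 5 higher with limma-voom, 7 lower with total count scaling, 1 lower with the fold change above 1.5, and 1 to 5 higher and 0 to 5 lower without a liver (1, 0 and 2 lower without the same 3 livers, 1 higher without the second WT, and 5 higher without the fourth WT or the third HKO liver). Under the replicate block 2 were lower, since Chkb (adjusted p = 0.0622 from edgeR) and Gclc (adjusted p = 0.0521) were no longer called. The block called 147 genes higher and 309 lower over all genes and none of the 10. Same-numbered livers had correlations across genes of -0.06, 0.01, -0.08 and -0.15, and those of differently numbered livers ran from -0.21 to 0.25. Nothing in the labels pairs the mice by number. With total count scaling the log2 fold change changed sign for Bhmt (-0.049), Sardh (-0.019) and Mtr (-0.047). Without a liver, the values that changed sign ranged from -0.10 to 0.17 for Bhmt, -0.082 to 0.032 for Bhmt2, -0.014 to 0.13 for Sardh, -0.021 to 0.28 for Mat1a, -0.070 to 0.16 for Mtr and -0.097 to 0.0022 for Mat2a. Without a liver, the difference of the ratios ran from 0.39 to 0.56 for Gnmt to Mat1a, -0.61 to -0.27 for Bhmt to Cbs and -0.58 to -0.23 for Chdh to Bhmt, and it changed sign for Bhmt to Mtr (-0.19 to 0.20), Mat1a to Mat2a (-0.046 to 0.37) and Bhmt2 to Bhmt (-0.17 to 0.027), and sign flips over same-numbered livers cannot give a p below 0.125. The cause of these changes was not tested. Each of the 10 genes had at least 1825 counts in every liver, and the part of depth in their values was not tested.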
